A study of Homo sapiens with 6 samples.

Results

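ATF4, its regulators and targets, the enzymes that make serine, glycine, asparagine, proline and cysteine, and the carriers that bring amino acids into the cell were examined in RL95-2 cells exposed to medium conditioned by fat cells. The 40 genes were taken by symbol for their place in these pathways, and all 40 were found among the 23228 genes of the count tables. The rule itself uses no measured value, but the genes were chosen with earlier results of these data known. They fall into 4 functions. The first holds 12 genes for ATF4, its regulators and some of its targets, and is called ATF4 and its regulators below. The others hold 9 genes for serine, glycine and folate metabolism, 8 for asparagine, proline, transaminase and cysteine synthesis, and 11 amino acid carriers.

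RL95-2 is an established human endometrial carcinoma line, kept for growth in RPMI medium with 10% serum. The 3 control samples received serum-free RPMI mixed in equal parts with DMEM, and the 3 ADP-CM samples received the same RPMI mixed in equal parts with ADP-CM. ADP-CM is DMEM that mature adipocytes, isolated from human visceral fat, had conditioned. All 6 samples were kept for 24 h before RNA was taken, and the comparison asks which genes of the cancer cells respond to what adipocytes leave in the medium. Nutrients that the adipocytes used up and factors that they released cannot be told apart in this design, since the control DMEM was not conditioned. The labels do not say that replicates came from separate cultures, so p-values measure the spread between these samples, which may be technical.

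ATF4 is a transcription factor whose protein is made mainly when translation is slowed through phosphorylation of the initiation factor eIF2, as happens when amino acids run short or when the endoplasmic reticulum is stressed. It then raises genes for amino acid synthesis and uptake, usually in a pair with a C/EBP factor. Because much of this control acts on translation and on the protein, the level of ATF4 mRNA is only 1 layer of it, and protein was not measured in these files.

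The libraries held 16262614 to 18363033 reads on genes, which at a common biological coefficient of variation of 1.67% resolved small changes of well expressed genes. Levels are given as CPM, the count of a gene scaled to library size with edgeR's TMM factors. Genes were called at a Benjamini-Hochberg adjusted p under 0.01 in the quasi-likelihood test of edgeR, run over the 12663 genes that passed its filter, and log2 fold changes are ADP-CM minus control. Of 10 epithelial marker genes 2 rose and 6 fell, or 80% called, beside 26.5% of all tested genes. Their summed level was 4624 to 4706 CPM in control and 3859 to 3916 CPM in ADP-CM libraries. KRT8 held 1843 and KRT18 1508 of 4674 CPM of this sum in control, and MUC1, 1 of the 2 that rose, was at 0.954 CPM there. The samples are of a single cell line given filtered medium, so marker sums describe RNA of RL95-2 cells and not a mix of cell types. The 10 adipocyte markers summed to between 0.37 and 1.03 CPM in any library, with ADIPOQ, LEP, CIDEA, G0S2 and AQP7 at 0 reads throughout. Stromal markers summed to 68.7 to 75.3 CPM in control and 93.7 to 96.8 CPM in ADP-CM, leukocyte markers were at 8.54 to 9.86 against 11 to 13.4 CPM, and endothelial markers at 64.4 to 70.4 against 57.9 to 65.2 CPM. Of the 10 markers in each list, 5 stromal, 6 leukocyte and 5 endothelial had 3 reads or fewer in every library. In control, COL1A1 held 62.3 of 72 CPM of the stromal sum, CD68 7.43 of 9.31 and CDH5 63.5 of 68.1. The part of these marker shifts in the results was not tested.

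The 40 genes did not move as 1 block. Of the 40, 11 rose and 10 fell, which is 52.5%, while 26.5% of all tested genes passed the same limit, 13.5% higher and 13.0% lower. All 40 passed the filter on low counts. The median log2 fold change of the 40 was 0.027, beside -0.0023 over all tested genes, and single values ran from -0.61 for ATF5 to 0.32 for SESN2. Calls were more frequent among highly expressed genes: at a mean of at least 10 CPM the share past the limit was 60.0% of 35 members and 31.2% of all genes, and at 100 CPM it was 57.9% of 19 members and 43.8% of all genes. Both level limits were chosen after values were seen. Groups did not overlap for 27 of the 40 genes, or 67.5%, against 45.5% of all tested genes. Only ATF5 and SLC1A4, both lower, passed an added limit of 1.5-fold, beside 2.27% of tested genes, 1.14% in each direction. Such calls sat close to that limit, and leaving out 1 library left between 0 and 2 of them.

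**Figure D1:**
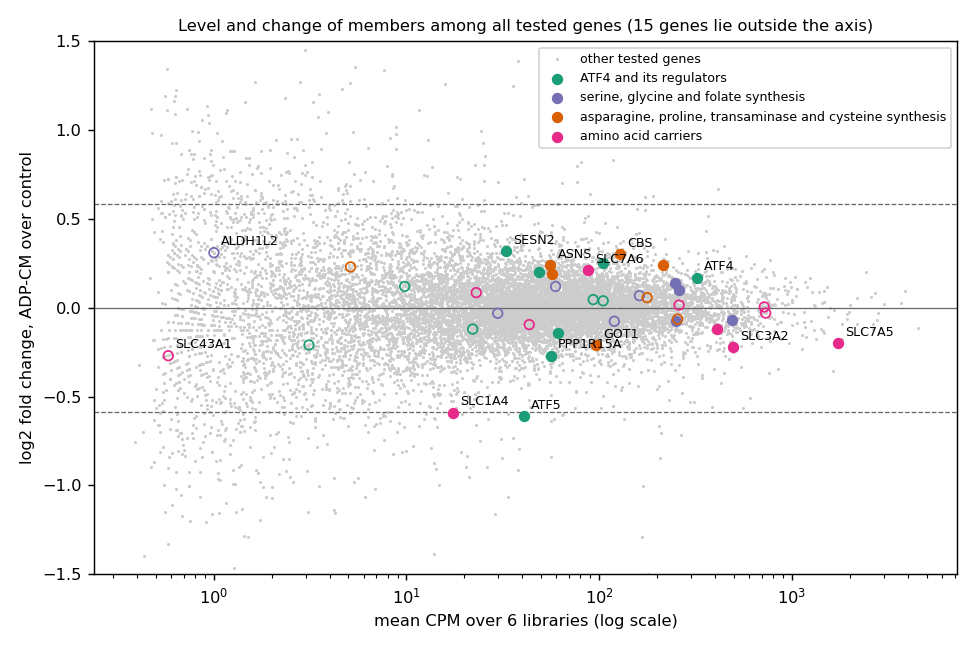
Log2 fold change (ADP-CM minus control) against mean level in log10 CPM for the 40 genes, over all 12663 tested genes in the background, with filled points at an adjusted p under 0.01, open points for the rest and dashed lines at a 1.5-fold change. The members lie on both sides of 0, and ATF5 and SLC1A4 are the members past a dashed line.

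By function, the group of ATF4, its regulators and targets had 4 genes higher and 3 lower of 12, and the median log2 fold change was 0.042. Serine, glycine and folate genes had 2 higher and 2 lower of 9, with a median of 0.068, although none of the 9 passed as lower without ADP-CM replicate 1 or any 1 control library. The group of asparagine, proline, transaminase and cysteine synthesis had 4 higher and 1 lower of 8, with a median of 0.21. Carriers went the other way in count, with 1 higher and 4 lower of 11 and a median of -0.095. In that order the shares past the limit were 58.3%, 44.4%, 62.5% and 45.5%. Beside them stand 26.5% of all tested genes and 43.8% of those at 100 CPM or more.

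Summed over the genes of a function, carriers gave 4693, 4720 and 4701 CPM in the control libraries and 4364, 4309 and 4394 CPM in the ADP-CM libraries. The groups did not overlap, and the ADP-CM sum was 7.41% below control, a figure in which SLC7A5 alone held 1862 of 4705 CPM. The sums of the other functions differed by 0.692% for serine, glycine and folate genes, 4.65% for ATF4 and its regulators and 6.31% for the asparagine group, each with the higher mean in ADP-CM. ATF4 alone went from 302 to 340 CPM in a sum that went from 878 to 919 CPM, and 5 of those 12 genes had lower log2 levels. In the asparagine group PYCR1 went from 196 to 231 and CBS from 115 to 141 CPM. That sum went from 959 to 1019 CPM, and 2 of the 8 genes had lower log2 levels. For serine, glycine and folate genes the libraries overlapped.

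**Figure D2:**
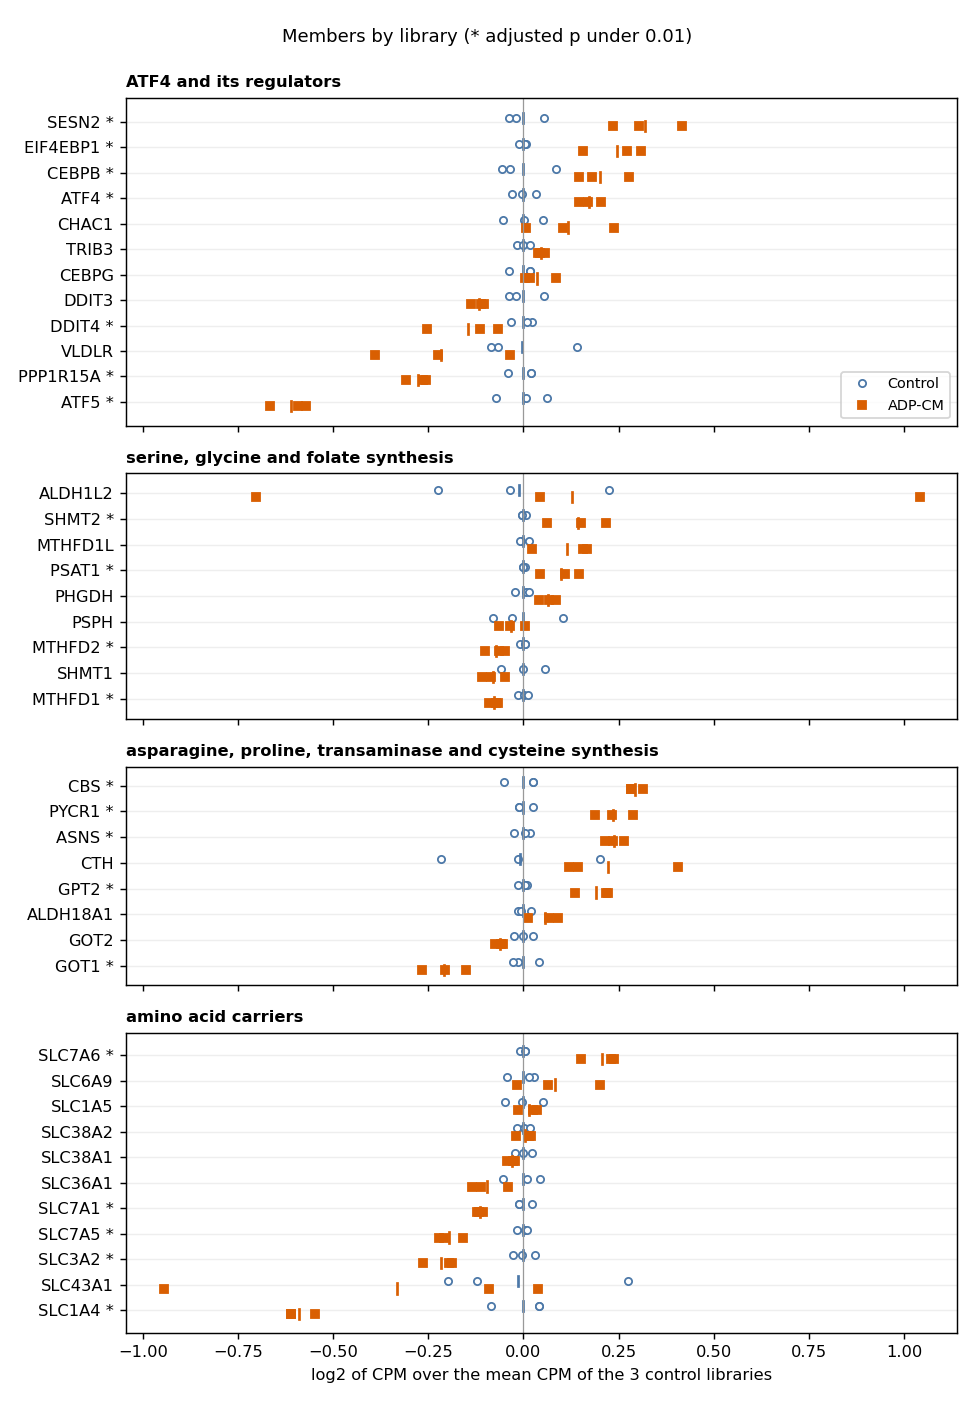
Level of each of the 40 genes in each library, in CPM relative to the control mean of that gene, by function, with points for the libraries, bars at the group means and an asterisk at an adjusted p under 0.01. In ADP-CM, PYCR1, CBS and ASNS lie above control and SLC7A5, SLC3A2 and SLC1A4 below it.

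Promoters of these genes are shown for the composite C/EBP and ATF element, the site at which ATF4 acts together with a C/EBP partner. The letters TGATGNAA were searched on both strands from 250 bases before to 50 bases after each start in RefSeq promoters of GRCh38.p14. Of the 34 members with a promoter in that table, 10 held the letters, or 29.4%, while 1217 of 27305 genes did, or 4.46%. Over windows the shares were 12 of 56 for members and 3.62% of 35116 for all. The 6 members with no entry were ALDH1L2, EIF4EBP1, GPT2, PSPH, PYCR1 and SHMT2. A match is a string of letters and not a measured binding site, and the genes were chosen for their link to ATF4, so the share describes the choice of genes as well. Each match is printed on the strand of its gene with the motif in capitals and up to 10 bases on each side, with the genes that were called first. TGATGNAA in capitals reads along the gene, and TTNCATCA is the same element on the other strand.
ASNS, chr7:97872459-97872486, minus strand, motif starting 68 bases before the start: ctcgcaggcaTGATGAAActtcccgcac
SLC1A4, chr2:64989382-64989409, plus strand: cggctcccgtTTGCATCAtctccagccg
SLC3A2, chr11:62881726-62881748, plus strand: gcaggactccTTACATCAgctcc
SLC7A1, chr13:29595664-29595691, minus strand: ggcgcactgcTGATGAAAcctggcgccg
GOT1, chr10:99430805-99430832, minus strand: attgcattggTTGCATCAttctcggcag
CEBPG, chr19:33374061-33374088, plus strand: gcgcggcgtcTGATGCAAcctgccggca
CHAC1, chr15:40953252-40953279, plus strand: tcccctgccgTTGCATCActcctgccag
MTHFD1L, chr6:150866347-150866374, plus strand: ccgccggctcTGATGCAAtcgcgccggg
SLC1A5, chr19:46784894-46784921, minus strand: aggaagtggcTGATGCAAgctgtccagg
SLC38A1, chr12:46266503-46266530, minus strand: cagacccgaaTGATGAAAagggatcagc
These 10 genes did not share a direction. ASNS rose, SLC1A4, SLC3A2, SLC7A1 and GOT1 fell, and the other 5 did not pass the limit. The share past the limit was 50%, near the 52.5% of all 40 members, beside 26.5% of all tested genes.

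ATF4 mRNA itself rose slightly. Its level was 301, 296 and 309 CPM in control replicates 1, 2 and 3 and 340, 334 and 348 CPM in ADP-CM replicates 1, 2 and 3, so every ADP-CM library was above every control library. The log2 fold change was 0.17 (SE, its standard error, 0.023, edgeR adjusted p = 9.54e-09). ATF4 lies at chromosome 22, 39915700 to 39918688, on GRCh37, the build the authors call hg19, and 4 pseudogenes carry its name.

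ATF5, a related factor that is also controlled through eIF2 and that serves the mitochondrial stress response, moved against ATF4. It had 51.5, 46.9 and 49.6 CPM in control and 31.1, 32.7 and 33.2 CPM in ADP-CM libraries. The groups were far apart, with a log2 fold change of -0.61 (SE 0.050, edgeR adjusted p = 5.25e-16). The ratio of ATF5 to ATF4 reads went from 0.163 ± 0.0066 to 0.0949 ± 0.0031 (SD over 3 libraries each). ATF5 (chromosome 19, 50431959 to 50437192) shares 19.5% of its exonic bases with genes on the opposite strand, and the strand setting of the counting is not given in the sources used here.

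SESN2, which encodes a leucine-binding inhibitor of the growth kinase mTORC1, had the largest called rise of the 40. It was at 28.7, 28.3 and 30.2 CPM in control and at 34.2, 35.9 and 38.8 CPM in ADP-CM, with a log2 fold change of 0.32 (SE 0.056, edgeR adjusted p = 3.33e-06). EIF4EBP1, which encodes a repressor of cap-dependent translation that mTORC1 inactivates, rose as well. It had 96.5, 96.2 and 95.3 CPM in control and 116, 107 and 119 CPM in ADP-CM libraries, a log2 fold change of 0.25 (SE 0.034, edgeR adjusted p = 1.91e-08). DDIT4, which encodes a further inhibitor of mTORC1, went the other way. It had 65.2, 62.7 and 64.5 CPM in control and 59.3, 53.8 and 61.2 CPM in ADP-CM, a log2 fold change of -0.14 (edgeR adjusted p = 0.00568). DDIT4 is a weak call: the adjusted p was 0.0578 with DESeq2 and 0.0973 without ADP-CM replicate 2, the lowest library, and it was 0.0103 to 0.0288 when replicate 1 of either group or replicate 3 of control was left out.

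PPP1R15A encodes GADD34, which brings a phosphatase to eIF2 and so restarts translation. Its level was 62.3, 62.3 and 59.8 CPM in control and 51.2, 51.5 and 49.6 CPM in ADP-CM libraries. All ADP-CM libraries were lower, with a log2 fold change of -0.27 (SE 0.042, edgeR adjusted p = 2.37e-07). CEBPB, a C/EBP factor that can pair with ATF4, was at 48.1, 43.6 and 44.2 CPM in control and at 50.1, 51.3 and 54.9 CPM in ADP-CM. That is a log2 fold change of 0.20 (edgeR adjusted p = 0.000439), which DESeq2 placed at an adjusted p of 0.0118.

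The remaining genes of this function include those best known as readouts of the pathway under stress, and they did not pass the limit. DDIT3, which encodes the factor CHOP, was lower in every ADP-CM library, with a log2 fold change of -0.12 and a 95% interval of -0.24 to 0.01. DDIT3 shares 31.6% of its exonic bases with genes on the opposite strand and 8.03% with a gene on the same strand. TRIB3, a pseudokinase that restrains ATF4, had a log2 fold change of 0.046 with an interval of -0.02 to 0.11, and CHAC1, which degrades glutathione, a change of 0.12 with an interval of -0.07 to 0.32. For CEBPG, another C/EBP partner, the interval was -0.03 to 0.11, and for VLDLR, a lipoprotein receptor at 3.35 CPM in control, it was -0.55 to 0.14. The intervals of TRIB3 and CEBPG leave room for changes of at most 0.11 on the log2 scale, and that of VLDLR is wide.

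The serine pathway starts with PHGDH, which takes an intermediate out of glycolysis, and goes on through PSAT1 and PSPH. PHGDH had 156, 159 and 160 CPM in control and 168, 163 and 166 CPM in ADP-CM, without overlap, and did not pass the limit, with a log2 fold change of 0.068 and an edgeR adjusted p of 0.0506. PSAT1 rose from 251, 250 and 250 CPM in control to 277, 270 and 258 CPM, a log2 fold change of 0.10 (edgeR adjusted p = 0.000879). PSAT1 lost its call without ADP-CM replicate 1, the highest library, where its log2 fold change was 0.077 and its adjusted p 0.0381. PSPH, the last step, had a log2 fold change of -0.031 with a 95% interval of -0.15 to 0.08.

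Serine is split into glycine and a carbon unit on folate by SHMT2 in mitochondria and by SHMT1 in the cytosol, and of these SHMT2 passed the limit. SHMT2 (chromosome 12, 57623356 to 57628718) had 236, 238 and 236 CPM in control and 263, 247 and 275 CPM in ADP-CM, and it rose by a log2 fold change of 0.14 (SE 0.027, edgeR adjusted p = 1.47e-05). SHMT1 had 118, 128 and 123 CPM in control and 116, 114 and 119 CPM in ADP-CM, which overlap, with an edgeR adjusted p of 0.0557. The ratio of SHMT2 to SHMT1 reads was 1.93 ± 0.07 in control and 2.24 ± 0.074 in ADP-CM (SD over 3 libraries each). This ratio and 7 others were compared by a two-sided exact permutation test, in which 3 libraries against 3 cannot give a p below 0.1, and it reached p = 0.1, or 0.133 when adjusted over the 8 ratios. The 8 pairs were chosen with values in view.

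The enzymes that carry the folate unit onward moved little. MTHFD2, of mitochondria, had 498, 502 and 502 CPM in control and 479, 484 and 467 CPM in ADP-CM, a log2 fold change of -0.071 (edgeR adjusted p = 0.00419). MTHFD1, of the cytosol, had 256, 259 and 261 CPM in control and 243, 247 and 246 CPM in ADP-CM, a log2 fold change of -0.077 (edgeR adjusted p = 0.00899). Both calls lay close to the limit. That of MTHFD1 was lost with plain library sizes (adjusted p = 0.0119), with DESeq2 (0.0306), with no filter (0.0121) and without ADP-CM replicate 1 or any 1 control library (0.0157 to 0.0576), and that of MTHFD2 without any 1 library other than ADP-CM replicate 2 (0.0102 to 0.026).

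MTHFD1L, which releases formate from mitochondria, had 57.7, 56.9 and 56.7 CPM in control and 64.1, 63.6 and 58.0 CPM in ADP-CM. It did not pass the limit (edgeR adjusted p = 0.0238), and its ADP-CM replicate 3 lay nearest to control. Without that library its log2 fold change was 0.16 and its adjusted p 0.00207. ALDH1L2, a mitochondrial folate dehydrogenase, was too low to resolve, with 17, 13 and 15 reads in control and 10, 17 and 34 in ADP-CM libraries.

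Of the enzymes of asparagine, proline, alanine and cysteine synthesis, 4 rose, with log2 fold changes of 0.19 to 0.30. ASNS, which makes asparagine and is a standard target of ATF4, had 52.0, 50.5 and 51.5 CPM in control and 60.4, 59.6 and 61.7 CPM in ADP-CM libraries. The log2 fold change was 0.24 (SE 0.042, edgeR adjusted p = 4.17e-06), and no library of ADP-CM came near control. ASNS lies at chromosome 7, 97480989 to 97501854, and its promoter element is printed above. In the GENCODE annotation it overlaps a second gene of the same strand over 49.3% of its exonic bases. That second gene may be absent from the RefSeq genes on which reads were counted.

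PYCR1, the last enzyme of proline synthesis, had 195, 200 and 195 CPM in control and 224, 231 and 240 CPM in ADP-CM, a log2 fold change of 0.24 (SE 0.027, edgeR adjusted p = 4.22e-11). The step before it, ALDH18A1, had a log2 fold change of 0.057 with a 95% interval of 0.00 to 0.11 and did not pass the limit (edgeR adjusted p = 0.0978). In the GENCODE annotation PYCR1 shares 14.1% of its exonic bases with genes on the same strand and 15.6% with genes on the other. Whether the RefSeq genes used for counting hold these was not checked.

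CBS, the first enzyme of the path from homocysteine to cysteine, also rose. It had 117, 117 and 111 CPM in control and 140, 143 and 140 CPM in ADP-CM libraries, a log2 fold change of 0.30 (SE 0.031, edgeR adjusted p = 3.46e-12). In the GENCODE annotation CBS (chromosome 21, 44473301 to 44497053) shares 36.8% of its exonic bases with another entry on the same strand. Reads were counted on RefSeq genes, which may not hold that entry. CTH, the second enzyme of that path, was at 4.73 CPM in control and 5.54 CPM in ADP-CM, with an interval of -0.05 to 0.50 around a log2 fold change of 0.23.

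Among the transaminases, GPT2, which makes alanine from pyruvate, had 53.6, 53.4 and 52.7 CPM in control and 61.9, 58.5 and 62.1 CPM in ADP-CM libraries. Its log2 fold change was 0.19 (SE 0.042, edgeR adjusted p = 0.000168). GOT1, the cytosolic aspartate transaminase, was the gene of the group that fell. It had 102, 101 and 106 CPM in control and 85.6, 89.3 and 92.7 CPM in ADP-CM, a log2 fold change of -0.21 (SE 0.035, edgeR adjusted p = 1.05e-06). Its mitochondrial counterpart GOT2 had a log2 fold change of -0.064, without overlap, and did not pass 0.01 (edgeR adjusted p = 0.032). Reads of GOT2 over GOT1 went from 2.53 ± 0.087 to 2.81 ± 0.094 (SD over 3 libraries each; exact permutation p = 0.1, adjusted 0.133).

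The carriers included the highest levels of the 40 genes. Per kilobase of transcript, the control mean was 409 CPM for SLC7A5, 282 for SLC3A2, 150 for SLC38A2, 91.3 for SLC38A1, 89.8 for SLC1A5 and 58.0 for SLC7A1, and it was 13.0 or less for the other 5. SLC43A1, a carrier of large neutral amino acids, had only 6 to 13 reads in any library.

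SLC7A5 encodes LAT1, the carrier of leucine and other large neutral amino acids, and SLC3A2 encodes CD98, the chain that holds LAT1 in the membrane. SLC7A5 (chromosome 16, 87863629 to 87903113) had 1868, 1876 and 1842 CPM in control and 1612, 1597 and 1669 CPM in ADP-CM, a log2 fold change of -0.20 (SE 0.017, edgeR adjusted p = 3.05e-15). SLC3A2 (chromosome 11, 62623476 to 62656352) had 530, 521 and 542 CPM in control and 466, 442 and 464 CPM in ADP-CM, a log2 fold change of -0.22 (SE 0.021, edgeR adjusted p = 5.52e-13). Both chains were lower in every ADP-CM library than in any control library. Their ratio, SLC3A2 over SLC7A5, was 0.285 ± 0.0084 in control and 0.281 ± 0.0069 in ADP-CM (SD over 3 libraries each), with overlapping libraries and an exact permutation p of 0.6.

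SLC7A6, which encodes another light chain that pairs with CD98 and exchanges arginine for neutral amino acids, was the carrier that rose. It had 81.3, 80.6 and 81.2 CPM in control and 95.1, 90.0 and 95.6 CPM in ADP-CM, a log2 fold change of 0.21 (SE 0.035, edgeR adjusted p = 2.26e-06). The gene shares 55.6% of its exonic bases with SLC7A6OS and a further gene on the opposite strand. Without the strand setting it is not known whether reads on these bases were counted, and for which gene. SLC7A1, the main carrier of arginine and lysine, had 423, 433 and 423 CPM in control and 393, 396 and 392 CPM in ADP-CM. It fell, with a log2 fold change of -0.12 (SE 0.021, edgeR adjusted p = 9.73e-06).

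SLC1A4 and SLC1A5 both encode sodium-dependent exchangers of alanine, serine and cysteine, and SLC1A5 also takes up glutamine. SLC1A4 (chromosome 2, 65215611 to 65250999) had 19.7, 21.5 and 21.5 CPM in control and 13.7, 14.3 and 13.7 CPM in ADP-CM, a log2 fold change of -0.59 (SE 0.072, edgeR adjusted p = 7.38e-10). SLC1A5 had 258, 250 and 268 CPM in control and 263, 256 and 265 CPM in ADP-CM, with a log2 fold change of 0.015 and a 95% interval of -0.04 to 0.06. It shares 23.8% of its exonic bases with genes on the opposite strand. The libraries of SLC1A4 were fully apart and those of SLC1A5 overlapped. The ratio of SLC1A5 to SLC1A4 reads was 12.4 ± 0.75 in control and 18.8 ± 0.82 in ADP-CM (SD over 3 libraries each; exact permutation p = 0.1, adjusted 0.133). At 1.501-fold, SLC1A4 sat on the 1.5-fold limit, and it was 1.48- to 1.49-fold lower without Control replicate 2 or 3 or ADP-CM replicate 1 or 3.

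SLC38A1 and SLC38A2 encode the sodium-coupled carriers of glutamine and alanine, of which SLC38A2 is known to be raised when amino acids are short. SLC38A2 was at 718 ± 8.56 CPM in control and 720 ± 10.9 CPM in ADP-CM (SD over 3 libraries each), and its interval of -0.03 to 0.04 leaves room only for a very small change. SLC38A1 was at 739 ± 11.1 and 724 ± 4.94 CPM, with an interval of -0.07 to 0.01. SLC6A9, the glycine carrier, and SLC36A1, which exports amino acids from lysosomes, had log2 fold changes of 0.085 and -0.095 and did not pass the limit.

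**Figure D3:**
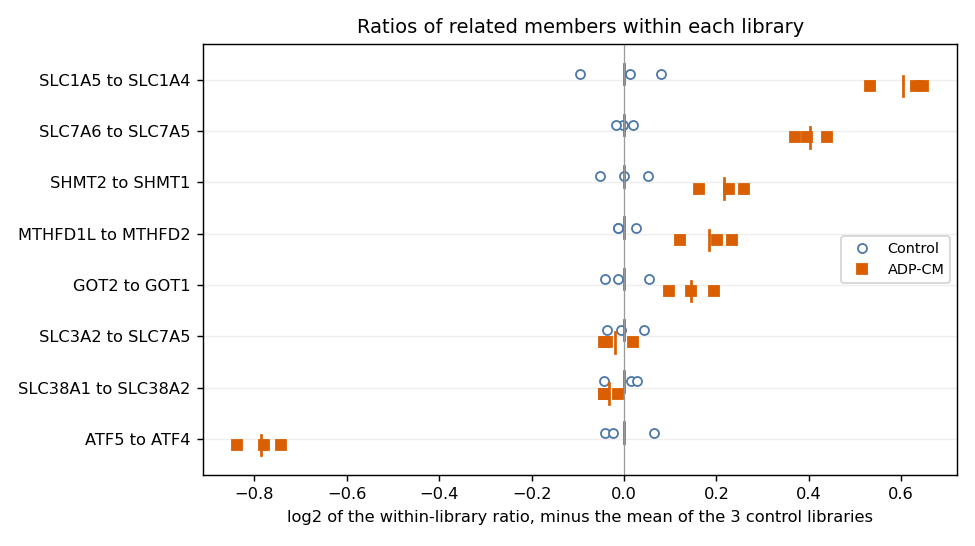
Ratio of reads of 8 pairs of related genes in each library, relative to the control mean of the pair, with points for the libraries and bars at the group means. The ratios of SHMT2 to SHMT1, GOT2 to GOT1, SLC1A5 to SLC1A4, SLC7A6 to SLC7A5 and MTHFD1L to MTHFD2 are higher in every ADP-CM library, that of ATF5 to ATF4 is lower, and those of SLC3A2 to SLC7A5 and SLC38A1 to SLC38A2 overlap.

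Other genes of these pathways were taken as 7 lists of 173 genes, of which 171 were found and 150 tested. Of the 150, 30 rose and 29 fell, or 39.3% past the limit beside 26.5% of all tested genes, and their median log2 fold change was -0.023. The share past the limit was 23.5% for the eIF2 list, 54.2% for stress factors and 45% for endoplasmic reticulum stress. It was 47.4% for folate and glycine genes, 42.9% for amino acid enzymes, 35% for carriers and 27.6% for mTORC1 sensing. Up to 4 genes with the smallest p-values are named in each list.

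Upstream of ATF4, the 17 genes for eIF2 kinases, eIF2, its exchange factor eIF2B and factors that act beside them had 4 higher and 0 lower with edgeR. That is 23.5% past the limit, beside 26.5% of all tested genes. DESeq2 also gave 0 lower. With edgeR there were 2 lower at an unadjusted p of 0.05, and 7 higher and 2 lower at an adjusted p of 0.05. EIF2A, an initiation factor separate from eIF2, rose by a log2 fold change of 0.17. EIF2S3, the gamma subunit of eIF2, had 0.11, EIF2B5, the catalytic subunit of eIF2B, 0.15, and GCN1, which activates the kinase GCN2 on stalled ribosomes, 0.10. The list of other ATF4-responsive genes, related factors and stress factors had 5 of 24 higher and 8 lower, the latter 4 without Control replicate 2 and 5 with DESeq2. VEGFA, a growth factor for vessels, rose from 69.8 ± 0.0436 to 91.3 ± 0.341 CPM (SD over 3 libraries each), and STC2, a secreted glycoprotein, from 76.5 ± 0.57 to 98.8 ± 0.905 CPM. SQSTM1, the autophagy receptor p62, and GDF15, a stress hormone, fell, with log2 fold changes of -0.17 and -0.22.

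The list of 20 genes of endoplasmic reticulum stress had 4 higher and 5 lower. The higher count was 2 with DESeq2 or without any 1 control library, and the lower count was 3 with DESeq2 or without replicate 1 of either group. HSPA5, the chaperone BiP, rose by a log2 fold change of 0.17 (SE 0.017, edgeR adjusted p = 1.5e-12). CRELD2, CALR and PDIA6, also of the endoplasmic reticulum, fell, with log2 fold changes of -0.42, -0.12 and -0.13. The members of this list thus took both directions.

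Of 19 other folate and glycine genes, 4 rose and 5 fell. TYMS, which makes thymidylate, fell, with a log2 fold change of -0.25. MAT2A, which makes S-adenosylmethionine, and SLC25A32, which carries folate into mitochondria, rose by 0.19 and 0.27. In the GENCODE annotation SLC25A32 shares 69.7% of its exonic bases with an entry on the same strand and 11.1% with one on the other. The list of 21 other amino acid enzymes had 3 higher and 6 lower, the latter 2 with DESeq2. GLUL, glutamine synthetase, had the smallest p of all genes in these lists: it had 305, 301 and 302 CPM in control and 436, 431 and 430 CPM in ADP-CM, a log2 fold change of 0.51 (SE 0.022, edgeR adjusted p = 6.86e-30). PRODH and ALDH4A1, which break proline down, fell, with log2 fold changes of -0.62 and -0.30, and PRODH had 90, 90 and 94 reads in control and 74, 52 and 69 in ADP-CM libraries. ASRGL1, an asparaginase, had -0.48, and GCLM, of glutathione synthesis, 0.15.

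Of 20 other carriers 4 rose and 3 fell. SLC38A4, a relative of SLC38A2, had 36, 37 and 28 reads in control and 88, 93 and 66 in ADP-CM, a log2 fold change of 1.16 (SE 0.18, edgeR adjusted p = 3.25e-07). SLC7A2, a relative of SLC7A1, had 42, 39 and 46 reads in control and 74, 73 and 111 in ADP-CM, a log2 fold change of 0.89 that was 0.67 without ADP-CM replicate 3. SLC43A2, a carrier of large neutral amino acids like LAT1, fell from 17.1 ± 0.462 to 11.1 ± 0.638 CPM (SD over 3 libraries each), a log2 fold change of -0.62. These low-level carriers moved past 1.5-fold, while SLC6A6, the taurine carrier, and SLC38A10 had log2 fold changes of 0.31 and -0.27. Of 29 genes by which mTORC1 senses amino acids, 6 rose and 2 fell, or 27.6%, near the 26.5% of all tested genes. With DESeq2 these counts were 2 and 0, without Control replicate 3 they were 3 and 1, and the lower count was 0 without Control replicate 2 and 1 without replicate 1 of either group. The log2 fold changes were 0.19 for LARS1, leucyl-tRNA synthetase, 0.26 for the autophagy kinase ULK1, 0.18 for NPRL3 and 0.36 for the arginine sensor CASTOR1. CASTOR1 lost its call with DESeq2 (adjusted p = 0.0447) and without either Control replicate 2 or 3 or ADP-CM replicate 2 or 3, NPRL3 with DESeq2 (0.0109), and PRODH with DESeq2 (0.0149) and without ADP-CM replicate 2 (0.0128).

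**Figure D4:**
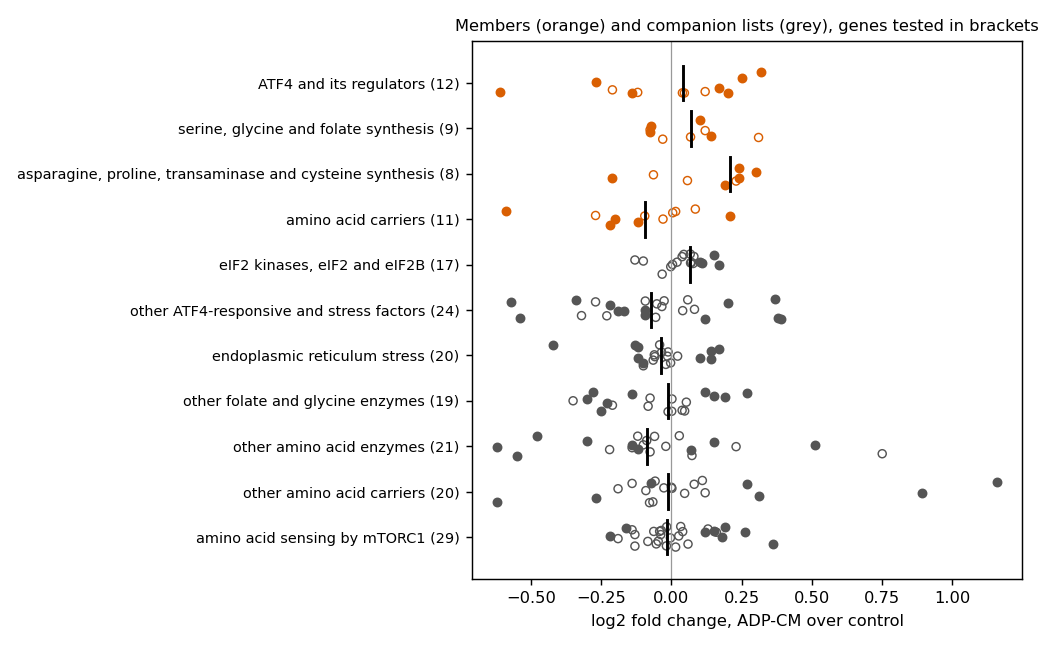
Log2 fold change (ADP-CM minus control) of each tested gene in the 4 functions of the 40 genes and in the 7 lists of other pathway genes, with filled points at an adjusted p under 0.01, open points for the rest and a bar at the median of each list. Every list has genes on both sides of 0, and the medians run from -0.095 for the carriers to 0.21 for the asparagine group.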

How the data were processed

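RNA of 3 control and 3 ADP-CM samples was read as 50 bp single reads from stranded poly(A) libraries. The authors mapped the reads to hg19 by TopHat2, and HTSeq gave the number on each RefSeq gene. These counts were deposited by the authors without normalization. Program versions and the strand setting are not given in the sources used here. HTSeq drops reads with more than 1 alignment, which lowers the counts of genes with near-identical copies. Summary lines that name no gene (reads on no gene were 10.3% and 11.5% of reads in control and ADP-CM) were kept out of library sizes.

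Counts were tested in R 4.3.3 with edgeR 4.0.16 (filterByExpr, TMM, quasi-likelihood test, Benjamini-Hochberg adjustment), the group being the only term. The study used DESeq and asked for an adjusted p under 0.01 and a fold over 1.5 together. Here genes were called at the adjusted p alone, and calls past both limits are given separately. CPM values are TMM-scaled, and per-kilobase values use GENCODE release 44 transcripts on GRCh37, which also gave gene positions and exon overlaps. On simulated data with 200 of 12665 genes changed, edgeR called 71 of 71 at 1.5-fold, 61 of 61 at 2-fold and 68 of 68 at 3-fold, with 1 false call. Changes under 1.5-fold were not simulated, so this does not cover the called members other than ATF5 and SLC1A4. Far more genes, 3357, were called in the data than were changed in the simulation.

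Alternatives were DESeq2 1.42.0, other scalings, filters and limits, a robust edgeR fit, the replicate number as a term and each library left out. Every pair of replicates differed beyond sampling noise. The members and lists were chosen with earlier results of these data known. Per-library values are given for ATF4 and for each member past the limit, and each list of other genes names the 4 smallest p-values at 1 CPM or more and any gene past 1.5-fold. A gene that this rule names is not reported here. List membership rests on general knowledge. Of the list symbols, 7 matched by an older name and 2 did not match.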

Additional observations from a re-analysis of the deposited data

Results flagged for a closer look

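Reads that lay on no gene made up 11.5% of reads in ADP-CM and 10.3% in control libraries, and the groups did not overlap. These reads enter no comparison above, and their part in the results was not tested.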

How the results depend on the processing

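Over 13 alternatives, 16 of the 21 called members were called every time. The sign turned in 6 of 519 refits, all of uncalled members: PSPH 0.0252 without Control replicate 3 (-0.0701 to 0.0252 over the 6 libraries left out), ALDH1L2 -0.273 without ADP-CM replicate 3 (-0.273 to 0.627), SLC1A5 -0.0105 without Control replicate 2 (-0.0105 to 0.0417), and SLC38A2 -0.00456, -0.00344 and -0.00145 without Control replicate 1, ADP-CM replicate 1 and ADP-CM replicate 2 (-0.00456 to 0.0169). CEBPB, DDIT4, PSAT1, MTHFD1 and MTHFD2 lost their call under at least 1 alternative, as given beside their values, and MTHFD1L gained one. DESeq2 called 1978 genes in all, against 3357, and 16 lower genes among the other pathway genes, against 29 (19 to 27 with 1 library left out, 19 without Control replicate 2). By list, DESeq2 gave 5 lower stress factors against 8, 2 higher and 3 lower endoplasmic reticulum genes against 4 and 5, 2 lower amino acid enzymes against 6, and 2 higher and 0 lower mTORC1 genes against 6 and 2. Members past 1.5-fold numbered 1 with plain library sizes and with no filter, in both cases because SLC1A4 fell under the limit, and 0 to 2 with 1 library left out. SLC1A4 fell under it without Control replicate 2 or 3 or ADP-CM replicate 1 or 3, and ATF5 without Control replicate 1 (1.495-fold) or ADP-CM replicate 1 (1.499-fold). Of serine, glycine and folate genes, 1 to 3 rose and 0 to 2 fell with 1 library left out, and 1 fell with plain library sizes, DESeq2 or no filter. None fell by this limit without ADP-CM replicate 1 or any 1 control library. At an adjusted p of 0.05, 2 genes of the asparagine group fell. The median of the 40 genes was 0.0101 to 0.0451 with 1 library left out and 0.038 with at least 10 reads in every library. With a replicate block, 3502 genes passed and members stayed at 11 higher and 10 lower. Same-numbered libraries correlated at 0.0141 to 0.0973 in their deviations. Each control library and ADP-CM replicates 1 and 3 correlated best with their own number, while ADP-CM replicate 2 did so with Control replicate 1 (0.0261). These small values do not settle whether the numbers pair samples, and the main fit did not pair them. The ratios of related genes and the summed levels, for which leaving out libraries was added after seeing the data, kept their sign, except SLC3A2 to SLC7A5 (log2 difference -0.0401 to 0.0032). Depth limits ALDH1L2, SLC43A1, VLDLR and CTH, whose intervals are wide.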

Other observations

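Of the carriers left out by the filter on low counts, SLC6A14, which takes up a broad range of amino acids, had 0, 1 and 1 reads in control and 6, 6 and 8 in ADP-CM libraries, and with no filter its edgeR adjusted p was 0.00535. SESN3, a relative of SESN2, had 7, 6 and 9 reads in control and 2, 3 and 2 in ADP-CM, with an edgeR adjusted p of 0.0363 with no filter. Both were singled out after their values were seen. FGF21, a hormone known to respond to ATF4, was at 0 reads in all 6 libraries. ATF3, another stress factor of the same family, had a log2 fold change of -0.54 (edgeR adjusted p = 1.45e-06), also named after its value was seen.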
